A study of Mus musculus with 24 samples.

Results

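RNA was sequenced from differentiating male C57/Bl6 mouse embryonic stem cells (mESCs), and 8 tight junction genes were followed: the claudins Cldn3, Cldn4, Cldn5, Cldn6, Cldn7 and Cldn9, the membrane protein gene Ocln and the scaffold gene Tjp1. They were chosen by name, with earlier results of these data known. Each has a single row among the 25965 entries of the expression table, and all 8 passed the filter on low values. The cells had been weaned from 2i into DME HiHi medium, transduced with a hairpin on day 2, selected with puromycin from day 3 and harvested on days 4, 5, 6 and 7. Nons, the non-silencing control, had 1 library a day. Smarcc1 knockdown and Smarca4 knockdown each had 2 libraries a day, 1 for each of 2 hairpins (Smarcc1.6 and Smarcc1.7, Smarca4.4 and Smarca4.6), which gives 20 libraries of 24 samples in the labels. The other Nons series was not analysed here. A genotype label calls the Smarca4 samples a Smarcc knockdown, and the sample titles were followed. All groups were virally transduced and drug selected, hairpins of 1 gene served as the replicates, and p-values therefore measure the spread between hairpins around a single Nons series.

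Tight junctions seal the space between neighbouring epithelial cells. Claudins form the strands that close or select the paracellular path, occludin (Ocln) lies in the same strands, and Tjp1 (ZO-1) ties them to actin from the inside. Cldn6 is known from early embryonic epithelium, Cldn3, Cldn4 and Cldn7 from many epithelia, and Cldn5 as the claudin of endothelium. Smarcc1 and Smarca4 are a core scaffold subunit and an ATPase of the BAF complex, which moves nucleosomes. The series asks what changes during differentiation when either subunit is depleted.

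The hairpins are shown because every comparison with Nons rests on them. Each sequence is the antisense strand, 5′ to 3′, as listed for the study's short hairpin RNAs, and the capitals mark bases 2 to 8, the seed.

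Smarcc1.6: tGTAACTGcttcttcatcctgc

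Smarcc1.7: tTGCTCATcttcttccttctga

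Smarca4.4: tTTATTACtgtctgactccagt

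Smarca4.6: tTGCATAAtagtgttcatcagt

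The target of Smarcc1.6 lay in coding exon 13 of Smarcc1 at chr9:110177472-110177493 (mm10, plus strand), and that of Smarcc1.7 in coding exon 11 at chr9:110173911-110173932. The target of Smarca4.6 lay in coding exon 22 of Smarca4 at chr9:21670504-21670525, whereas that of Smarca4.4 lay in the 3′ UTR, in exon 34, at chr9:21703327-21703348. Smarcc1 RNA stood at 23.7% to 60.1% of same-day Nons in its 8 knockdown libraries, and Smarca4 RNA at 21.6% to 55.3% in its own 8. The 23.7% (Smarcc1.6, day 5), 60.1% (Smarcc1.7, day 6) and 55.3% (Smarca4.4, day 6) are from libraries that differed by transcript length, as given below. The gene not targeted stood at 223% (Smarca4 in Smarcc1.7) and 190% (Smarcc1 in Smarca4.4) on day 6. The part of transcript length in these values was not tested. Both targeted genes passed the test in their own knockdown (limma, mean over the 4 days, log2 change -1.33, SE 0.206, adjusted p = 0.00115 for Smarcc1 and -1.79, SE 0.288, adjusted p = 0.00277 for Smarca4).

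Library totals ran from 6829596 reads (Smarca4.4, day 5) to 27472885 reads. Libraries of the same day also differed by transcript length. Against same-day Nons, the median log2 difference of 2652 genes with transcripts over 5000 bases minus that of 1980 genes of 1000 to 2000 bases ranged from -0.67 (Smarca4.6, day 5) and -0.55 (Smarcc1.6, day 5) to 0.68 (Smarca4.4, day 6) and 1.01 (Smarcc1.7, day 6). The other 12 knockdown libraries lay between -0.02 and 0.49. Cldn5 lies at chr16:18776847-18778260, Cldn6 at chr17:23679365-23682446, Cldn7 at chr11:69964779-69967885, Cldn9 at chr17:23682584-23684026, Ocln at chr13:100496507-100552718 and Tjp1 at chr7:65296165-65371239 (mm10). Exonic lengths of the claudins are 1259 to 1948 bases, that of Ocln is 4222 and that of Tjp1 is 7360, so each member's changes were also computed without those 4 libraries.

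Expression of 7 of the 8 genes rose between day 4 and day 7, and Cldn5 fell. Averaged over Nons and both knockdowns, Cldn7 rose most among the members (37.7-fold), followed by Cldn6 (15.9-fold), Cldn3 (11.5-fold), Cldn4 (5.75-fold), Ocln (5.21-fold), Cldn9 (4.06-fold) and Tjp1 (1.89-fold). This order is of the average and changed between groups: in Nons Cldn3 rose more (17.3-fold) than Cldn6 (15.5-fold), and with Smarcc1.6 and Smarcc1.7 Cldn9 rose more (6.59-fold and 6.70-fold) than Cldn4 (5.87-fold and 5.88-fold) or Ocln (5.58-fold and 5.71-fold). The log2 change was 5.24 for Cldn7 (SE 0.187, adjusted p = 5.35e-10) and -3.41 for Cldn5 (SE 0.276, adjusted p = 3.09e-07). The size of the Cldn5 change depended on the setting, from -3.82 with a straight line over days to -1.59 with 1 rpm added before the log, and on the group: day 4 was 1.92-fold and 3.63-fold above day 7 with the Smarcc1 hairpins, while the Nons and Smarca4 values of day 7 are 2 to 5 reads. Of all 13296 genes tested, 35.7% rose and 28.8% fell in this comparison by the same rule (limma with Benjamini-Hochberg adjustment, adjusted p under 0.05), so a call alone is common. The median log2 change of the 8 genes was 2.45, against 0.08 for all genes. The 8 genes were chosen with earlier results of these data known, so the 2 medians describe and do not test.

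**Figure D1:**
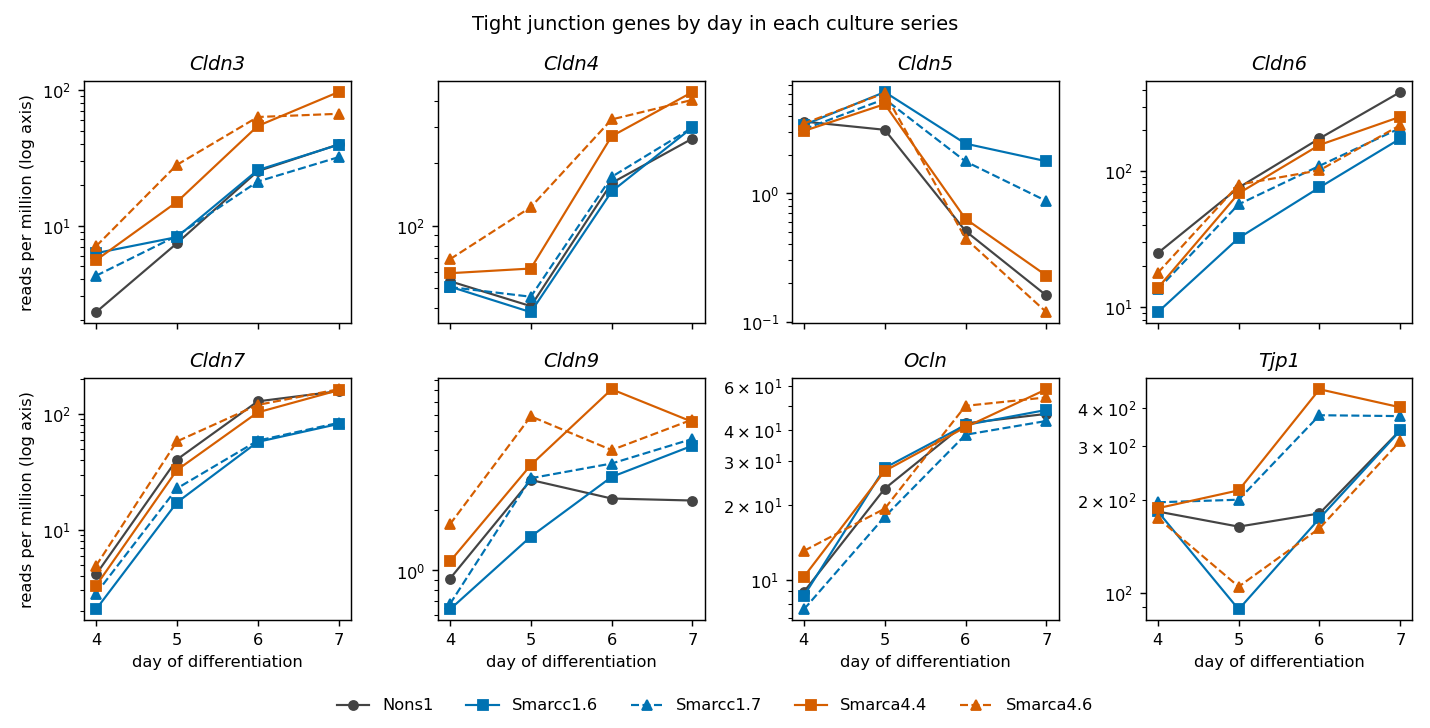
Expression in rpm (log axis) of each gene on days 4 to 7, with 1 line per culture series: Nons in grey, Smarcc1 knockdown in blue and Smarca4 knockdown in orange. Cldn5 ends day 7 below day 4 in all 5 series, after a rise on day 5 in the 4 knockdown series, while the other 7 genes end day 7 above day 4, and the Smarca4 lines lie above Nons throughout for Cldn3, Cldn4 and Cldn9.

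Cldn7 climbed in Nons through 4.11, 40.5, 129 and 158 reads per 1000000 (rpm) on days 4, 5, 6 and 7. It climbed through 2.05, 17.2, 57.5 and 82.2 rpm with Smarcc1.6 and through 2.81, 22.8, 58.97 and 84.0 rpm with Smarcc1.7. Both Smarcc1 hairpins were below Nons on every day, at 0.426-fold to 0.683-fold. With Smarca4.4 it reached 3.29, 32.8, 103.5 and 161 rpm, and with Smarca4.6 4.89, 58.0, 120 and 164 rpm, values on both sides of Nons.

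Cldn6 stood at 24.8, 75.5, 174 and 384 rpm in Nons. The values were 9.08, 32.0, 75.7 and 174 rpm with Smarcc1.6 and 13.4, 56.8, 109 and 208 rpm with Smarcc1.7. Again all 8 Smarcc1 libraries were below same-day Nons. With Smarca4.4 Cldn6 stood at 13.7, 68.5, 156 and 252 rpm and with Smarca4.6 at 17.7, 79.4, 101.4 and 218 rpm, so 7 of 8 libraries were below Nons and Smarca4.6 on day 5 was not.

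Cldn3 began low in Nons, at 2.29, 7.39, 25.2 and 39.8 rpm. It took the values 5.55, 14.9, 54.3 and 96.8 rpm with Smarca4.4 and 7.03, 28.1, 63.3 and 66.9 rpm with Smarca4.6. All 8 Smarca4 libraries were above same-day Nons, by 1.68-fold to 3.80-fold. With Smarcc1.6 it stood at 6.25, 8.22, 25.7 and 39.5 rpm and with Smarcc1.7 at 4.26, 8.40, 21.1 and 32.0 rpm, above Nons on days 4 and 5 and on both sides of it or below it later.

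Cldn4 was already at 54.1 rpm in Nons on day 4, dipped to 41.0 rpm on day 5 and rose to 161 and 264 rpm. With Smarcc1.6 it stood at 50.9, 38.3, 146 and 299 rpm, and with Smarcc1.7 at 50.7, 45.5, 172 and 298 rpm, within 0.910-fold to 1.13-fold of Nons. With Smarca4.4 it stood at 59.1, 62.2, 271 and 442 rpm and with Smarca4.6 at 68.99, 123, 326 and 405 rpm. The day-5 dip was therefore seen in Nons and in both Smarcc1 series and in neither Smarca4 series. This pattern was described after its values were seen. Smarca4.4 of day 5 held the fewest reads of all libraries (6829596), and Cldn4 rose there only from 59.1 to 62.2 rpm. In Smarca4.6 of day 5 the short genes of the length comparison had a median log2 difference from Nons of 0.41. Cldn4, which is of their length, had 1.59. The part of transcript length in this pattern was not tested.

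Cldn5 went the other way. In Nons it went down through 3.64, 3.14, 0.509 and 0.160 rpm, which is 100, 62, 8 and 3 reads. With Smarcc1.6 it stood at 3.42, 6.19, 2.45 and 1.78 rpm (39 reads on day 7), and with Smarcc1.7 at 3.17, 5.46, 1.78 and 0.873 rpm (14 reads on day 7). The Smarcc1 libraries were close to Nons on day 4 and above it on days 5, 6 and 7. With Smarca4.4 it stood at 3.07, 4.98, 0.633 and 0.229 rpm and with Smarca4.6 at 3.52, 6.07, 0.445 and 0.118 rpm (5 and 2 reads on day 7), so the Smarca4 libraries were above Nons on day 5 and near it on the other days.

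Cldn9, the least abundant of the rising claudins, held 14 to 140 reads a library. It stood at 0.910, 2.84, 2.29 and 2.24 rpm in Nons. With Smarca4.4 it stood at 1.11, 3.37, 8.06 and 5.54 rpm and with Smarca4.6 at 1.703, 5.90, 4.00 and 5.69 rpm, above Nons in all 8 libraries. With Smarcc1.6 it stood at 0.639, 1.48, 2.94 and 4.21 rpm and with Smarcc1.7 at 0.680, 2.89, 3.43 and 4.55 rpm, below Nons on day 4 and above it on days 6 and 7. Cldn9 ends 137 bases from the end of Cldn6 on chromosome 17, on the opposite strand, and use of strand in the authors' counting is not given in the sources used here.

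Ocln encodes occludin and differed little between groups. It stood at 8.95, 23.2, 42.5 and 46.4 rpm in Nons, at 8.63, 28.2, 41.9 and 48.1 rpm with Smarcc1.6, and at 7.61, 17.9, 38.3 and 43.5 rpm with Smarcc1.7. The Smarca4 libraries ran from 10.3 to 58.3 rpm with Smarca4.4 and from 13.1 to 54.0 rpm with Smarca4.6. It rose on each day in all 5 series, as did Cldn3, Cldn6 and Cldn7.

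For the scaffold gene Tjp1, hairpins of 1 gene disagreed on days 5 and 6. On day 6 it stood at 181 rpm in Nons, 175 and 379 rpm with Smarcc1.6 and Smarcc1.7, and 460 and 162 rpm with Smarca4.4 and Smarca4.6. On day 5 it stood at 164 rpm in Nons, 88.5 and 201 rpm with the Smarcc1 hairpins, and 216 and 105 rpm with the Smarca4 hairpins. The high and low libraries are those in which long genes as a whole were high or low, and their part in the Tjp1 values was not tested. The rise of Tjp1 from day 4 to day 7 (log2 change 0.91, SE 0.342, adjusted p = 0.0317 in limma) was lost without Smarca4.4 (adjusted p = 0.0588) and when each library was centred on genes of 1 to 2 kb (adjusted p = 0.13). Over all settings tried its adjusted p ranged from 1.12e-06 to 0.13.

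The 2 subunits were then compared with Nons. In Smarcc1 knockdown Cldn6 and Cldn7 fell and Cldn5 rose, while the other 5 genes did not pass the test. Cldn6 fell by 0.99 on the log2 scale (SE 0.191, adjusted p = 0.00499), Cldn7 fell by 0.97 (SE 0.172, adjusted p = 0.00281), and Cldn5 rose by 1.44 (SE 0.253, adjusted p = 0.00271; limma, mean over the 4 days). Of all genes tested, 7.54% rose and 3.08% fell by this rule. The Cldn5 mean joins unlike days. With Smarcc1.6 and Smarcc1.7 its log2 difference from Nons was -0.09 and -0.20 on day 4 and 0.98 and 0.80 on day 5. It was 2.27 and 1.80 on day 6 and 3.48 and 2.45 on day 7, where Nons held 8 and 3 reads. Over 14 other settings the Cldn5 change ranged from 0.66 to 1.66. Leaving out either hairpin of either gene left 3 members past the threshold. With a straight line over days in place of separate days, Cldn5 and Cldn7 did not pass (adjusted p = 0.118 and 0.33), and Cldn5 did not pass after quantile normalization (log2 change 0.78, adjusted p = 0.0772). Over all settings the adjusted p in limma ranged from 0.00132 to 0.118 for Cldn5, from 0.000263 to 0.33 for Cldn7 and from 0.00021 to 0.0367 for Cldn6.

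For the other 5 genes the Smarcc1 changes, with unadjusted 95% confidence intervals, were 0.27 for Cldn3 (-0.14 to 0.68), 0.02 for Cldn4 (-0.32 to 0.37), 0.13 for Cldn9 (-0.43 to 0.68), -0.08 for Ocln (-0.41 to 0.26) and 0.08 for Tjp1 (-0.60 to 0.76). A 2-fold change of the mean over the 4 days, which is 1 on this scale, lay outside these intervals for all 5 genes. Single days can differ by more. With Smarcc1.6 and Smarcc1.7, Cldn3 stood at 2.73-fold and 1.86-fold of Nons on day 4 and Cldn9 at 1.88-fold and 2.03-fold on day 7. Tjp1 stood at 0.963-fold and 2.09-fold on day 6. The intervals hold no spread between Nons series.

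In Smarca4 knockdown Cldn3, Cldn4 and Cldn9 rose and no member fell. Cldn3 rose by 1.29 on the log2 scale (SE 0.189, adjusted p = 0.00154), Cldn4 by 0.73 (SE 0.159, adjusted p = 0.0169) and Cldn9 by 0.97 (SE 0.256, adjusted p = 0.0401; limma). Of all genes tested, 4.75% rose and 1.96% fell. When each culture series was made a replicate block, Cldn3 passed (adjusted p = 0.0187), and Cldn4 (adjusted p = 0.105) and Cldn9 (adjusted p = 0.231) did not. Leaving out 1 hairpin at a time left 1 or 2 members past the threshold: without Smarcc1.6, Smarcc1.7 or Smarca4.6 neither Cldn4 nor Cldn9 passed, and without Smarca4.4 Cldn9 did not. Over all settings the adjusted p ranged from 9.49e-05 to 0.279 for Cldn4, past the threshold in 10 of 15 settings, and from 0.0078 to 0.231 for Cldn9, past it in 5 of 14.

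Cldn6 changed by -0.47 in Smarca4 knockdown and did not pass (95% confidence interval -0.89 to -0.06, adjusted p = 0.189). It passed without the 4 libraries in which long and short genes were furthest apart (log2 change -0.58, adjusted p = 0.00549), as did Ocln (0.28, adjusted p = 0.036), which brought the count of members from 3 to 5. No other setting called either gene, with adjusted p up to 0.464 for Cldn6 and 0.827 for Ocln. That fit takes its spread from the hairpin pairs of days 4 and 7 alone and calls 4253 of all genes in place of 892. The changes of Cldn5 (0.19), Cldn7 (-0.02), Ocln (0.18) and Tjp1 (0.13) in all 20 libraries did not pass.

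**Figure D2:**
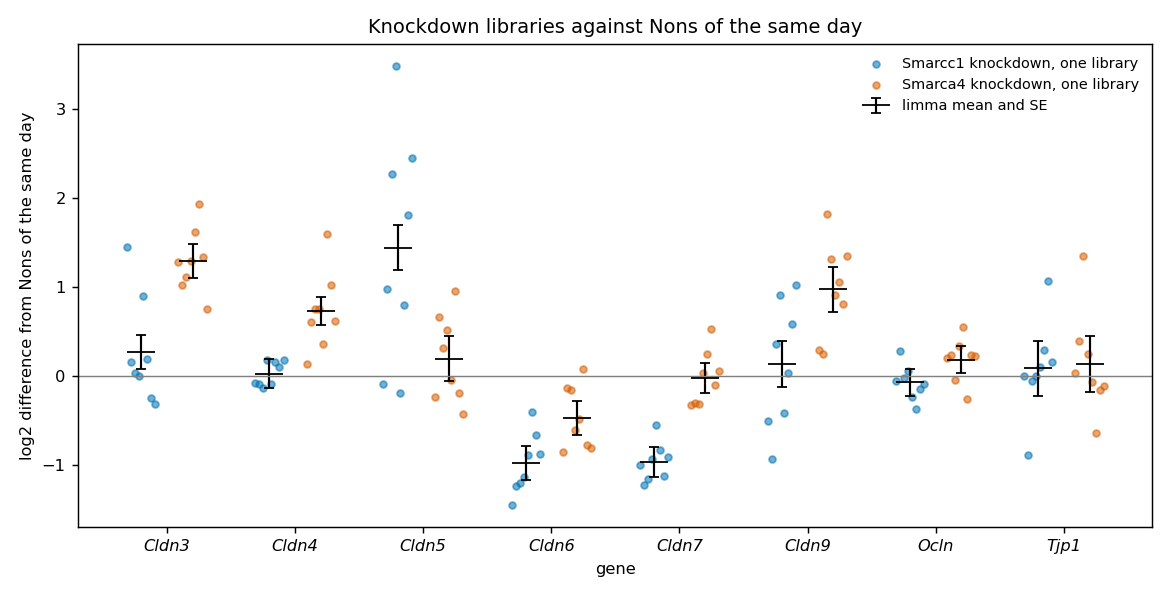
Log2 difference of each knockdown library from Nons of the same day (vertical axis) for each gene (horizontal axis), Smarcc1 knockdown in blue and Smarca4 knockdown in orange. Black bars give the limma mean over days with its standard error. All 8 Smarcc1 points lie below 0 for Cldn6 and Cldn7, and all 8 Smarca4 points lie above 0 for Cldn3, Cldn4 and Cldn9.

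The knockdowns share the Nons series, so they were compared with each other directly. Relative to Smarca4 knockdown, Smarcc1 knockdown had less Cldn3 (log2 difference -1.02, SE 0.155, adjusted p = 0.00314), Cldn4 (-0.70, SE 0.13, adjusted p = 0.0101), Cldn7 (-0.95, SE 0.14, adjusted p = 0.00273) and Cldn9 (-0.84, SE 0.209, adjusted p = 0.0412), and more Cldn5 (1.25, SE 0.207, adjusted p = 0.00563). In this contrast 2.55% of all genes tested were higher and 1.54% lower. The differences for Cldn6 (-0.52, adjusted p = 0.0946), Ocln (-0.26, adjusted p = 0.343) and Tjp1 (-0.05, adjusted p = 0.967) did not pass. Cldn6 passed in 3 of 15 settings, centred on the median gene (adjusted p = 0.047), without Smarcc1.7 (0.0335) and without the 4 libraries named above (0.0411), and Ocln in 1, without those 4 libraries (0.00632). The highest adjusted p was 0.413 for Cldn6 and 0.773 for Ocln. With a replicate block for culture series, Cldn3 (adjusted p = 0.0352) and Cldn7 (adjusted p = 0.0206) passed, and Cldn4 (adjusted p = 0.0815), Cldn5 (adjusted p = 0.0561) and Cldn9 (adjusted p = 0.26) did not. The count of 5 members became 0 without Smarcc1.6, 0 without Smarca4.6 and 3 without Smarcc1.7 or Smarca4.4.

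The slopes over days did not separate the groups by the test. No member passed for Smarcc1 knockdown (limma, 3 members at an unadjusted p under 0.05) or for Smarca4 knockdown (0 members), against 0.94% and 0.135% of all genes. The member nearest the threshold was Cldn5, whose log2 level fell less over the days in Smarcc1 knockdown than in Nons. Its log2 change from day 4 to day 7 was -4.51 in Nons, -0.94 with Smarcc1.6 and -1.86 with Smarcc1.7. The Cldn5 slope was higher in Smarcc1 knockdown by 1.05 a day (SE 0.227, adjusted p = 0.052 in limma). It passed with the replicate block (adjusted p = 0.0184), with limma-voom on the recovered reads (adjusted p = 0.0334), when centred on genes of 1 to 2 kb (adjusted p = 0.0317) and without the 4 libraries named above (adjusted p = 0.0134). It did not pass under the other alternatives, with adjusted p up to 0.797 (quantile normalization). The Nons values behind this slope are 8 reads on day 6 and 3 reads on day 7.

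Per length, the order of the genes changed over the days. On day 4 the median over 5 libraries was 29.8 rpm per kb for Cldn4 and 25.0 for Tjp1, whose ranges overlapped neither each other nor those of the other genes (27.9 to 38.0 and 23.8 to 26.8). On day 7 the medians were 164 rpm per kb for Cldn4 and 127 for Cldn6, with overlapping ranges. Next came 81.0 for Cldn7, 46.1 for Tjp1 and 31.6 for Cldn3, whose ranges also overlapped. Ocln followed at 11.4, Cldn9 at 3.16 and Cldn5 at 0.162 rpm per kb, and these last 3 did not overlap.

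The shares of the 6 member claudins among themselves differed between Nons and the knockdowns. The 19 other claudins listed are outside these shares. Their summed level, not divided by length, ran from 89.3 to 266 rpm in Nons. It ran from 73.8 to 207 rpm in Smarcc1 knockdown and from 73.2 to 282 rpm in Smarca4 knockdown. As a share of the 6 claudins per length, Cldn4 held 58.0% in Nons on day 4 against 63.3% to 66.4% in the 4 knockdown libraries, and 23.2% on day 5 against 30.4% to 38.9%. It held 31.9% in Nons on day 6 against 43.6% to 50.8%, and 30.1% on day 7 against 44.0% to 47.9%. Cldn6 held 46.2% in Nons on day 7, 29.4% and 33.8% with the Smarcc1 hairpins, and 26.5% and 25.8% with the Smarca4 hairpins. The summed level per length on day 7 was 482 rpm per kb in Nons, 343 and 357 in Smarcc1 knockdown and 553 and 491 in Smarca4 knockdown.

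**Figure D3:**
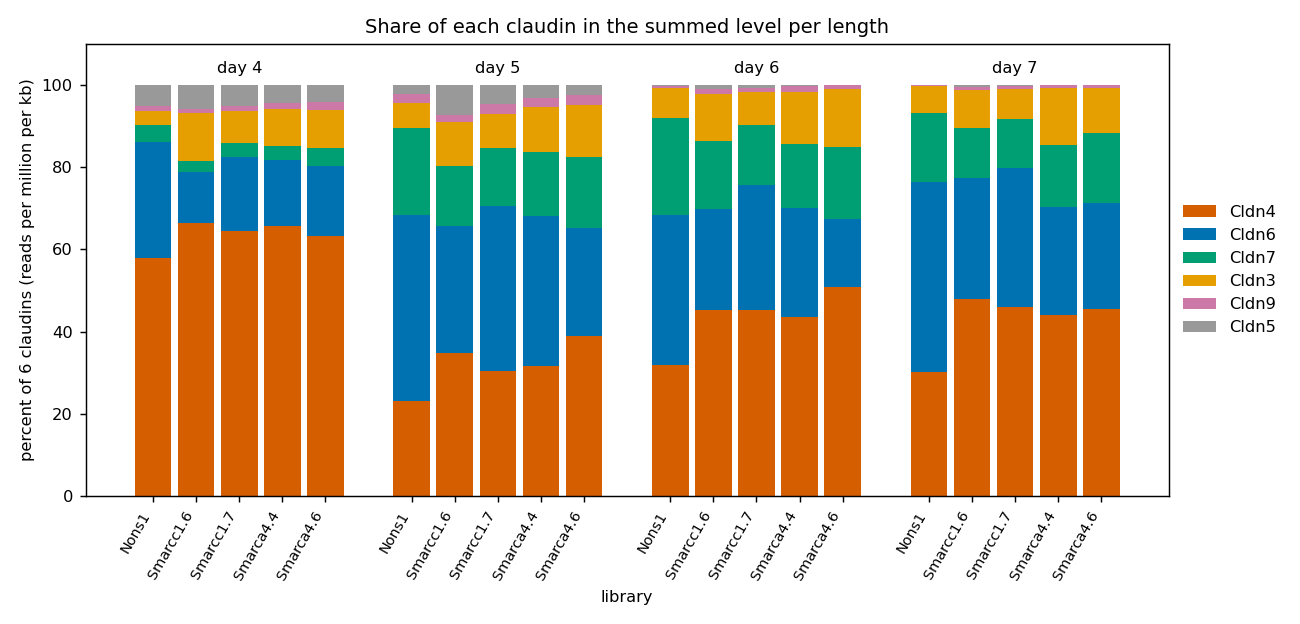
Share of each of the 6 claudins in their summed level per length (percent of rpm per kb, vertical axis) in each library, grouped by day. Cldn4 (orange) is a larger and Cldn6 (blue) a smaller share in each knockdown library than in Nons of the same day.

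The ratio of Cldn4 to Cldn6 reads, chosen after the values were seen and so given without a test, summarises this. In Nons it was 2.18, 0.543, 0.924 and 0.687 on days 4, 5, 6 and 7. It ran through 5.603, 1.196, 1.93 and 1.72 with Smarcc1.6 and 3.79, 0.800, 1.57 and 1.43 with Smarcc1.7. With Smarca4.4 it was 4.31, 0.908, 1.73 and 1.75, and with Smarca4.6 it was 3.89, 1.55, 3.22 and 1.86. All 16 knockdown libraries were above Nons of their day, on average 2.01-fold in Smarcc1 knockdown and 2.29-fold in Smarca4 knockdown. Both knockdowns were set against the same Nons library of each day, so the 16 comparisons are not independent. In Smarcc1 knockdown Cldn6 was lower with Cldn4 near Nons, and in Smarca4 knockdown Cldn4 was higher in every library and Cldn6 lower in 7 of 8.

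**Figure D4:**
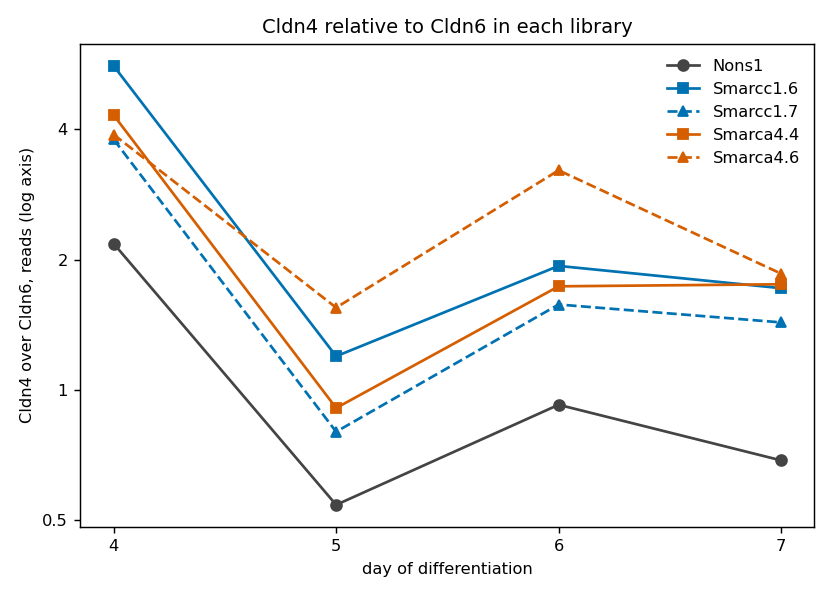
Ratio of Cldn4 reads to Cldn6 reads (log axis) by day in each culture series. The Nons line (grey) falls from 2.18 on day 4 to 0.687 on day 7 and lies below all 4 hairpin lines on every day.

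The promoters of the genes that fell in Smarcc1 knockdown (Cldn6, Cldn7) and of the neighbours that rose in Smarca4 knockdown (Cldn3 and Cldn4, 39279 bases apart on chromosome 5) are shown so that they can be set beside each other. Sequences are from RefSeq (GRCm38.p6, which shares its coordinates with mm10), end just before an annotated exon, and run 5′ to 3′ on the strand of the gene. Chromosome 5 holds Cldn3 at chr5:134986214-134987476 and Cldn4 at chr5:134945126-134946934, and 40 exonic bases of Cldn3 are shared with an antisense gene, Wbscr25, so its counts are uncertain to that extent. The capitals mark matches to CACCTG (the E-box of Snail and Zeb factors), CCGCCC (a GC box), TATAAA and AACCNGGTT (the Grainyhead-like site), each searched on both strands.

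Cldn6, chr17:23679115-23679248, plus strand: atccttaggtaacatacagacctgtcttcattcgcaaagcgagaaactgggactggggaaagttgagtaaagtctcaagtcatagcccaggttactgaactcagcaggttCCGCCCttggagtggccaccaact

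Cldn7, chr11:69964529-69964778, plus strand: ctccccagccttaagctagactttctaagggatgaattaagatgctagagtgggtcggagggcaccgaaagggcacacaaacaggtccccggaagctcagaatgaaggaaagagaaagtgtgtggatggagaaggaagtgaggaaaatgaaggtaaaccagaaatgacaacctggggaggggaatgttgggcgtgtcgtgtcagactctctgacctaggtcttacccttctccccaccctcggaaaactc

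Cldn3, chr5:134985964-134986213, plus strand: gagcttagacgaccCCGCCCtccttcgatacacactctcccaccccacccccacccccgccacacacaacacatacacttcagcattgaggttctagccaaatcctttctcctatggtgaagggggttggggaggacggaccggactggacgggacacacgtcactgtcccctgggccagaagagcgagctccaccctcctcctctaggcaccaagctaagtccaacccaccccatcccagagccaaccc

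Cldn4, chr5:134946935-134947184, minus strand: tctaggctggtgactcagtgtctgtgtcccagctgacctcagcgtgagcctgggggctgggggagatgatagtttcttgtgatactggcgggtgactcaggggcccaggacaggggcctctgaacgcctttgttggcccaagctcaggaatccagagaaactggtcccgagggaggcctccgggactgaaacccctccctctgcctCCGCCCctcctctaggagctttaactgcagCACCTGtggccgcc

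In the 250 bases before each RefSeq start, 7 of the genes had entries, with 9 starts in all. CCGCCC was found before 8 of the 9 starts and in 32.7% of all 32851 windows of that length, and CACCTG before 4 of the 9 starts and in 17.2% of all windows. TATAAA (12.4% of all windows) and AACCNGGTT (0.24%) were found before none. The CACCTG of Cldn4 began 14 bases before its start and that of Cldn6 93 bases before its RefSeq start, in a stretch that other transcripts hold as exon and that is not printed. Before the printed start of Cldn7 no motif was found, and before its other start there were CACCTG matches at 97 and 57 bases. A match describes letters only.

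Other junction genes were read from lists. Among 27 tested partners of tight junctions (of 29 listed), 1 rose and 4 fell in Smarcc1 knockdown and 1 rose and 3 fell in Smarca4 knockdown. Of all genes, 7.54% rose and 3.08% fell in the first comparison and 4.75% and 1.96% in the second. The share of partners that rose was thus no larger than that of all genes, and the share that fell was larger. These are counts of few genes in a list chosen with earlier results of these data known. The median log2 change was -0.22 and -0.03, against 0.06 for all genes in both comparisons. Between day 4 and day 7, 18 rose and 5 fell, where 35.7% of all genes rose and 28.8% fell.

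Jam2, a junctional adhesion molecule, rose in both knockdowns, by 2.22 on the log2 scale in Smarcc1 knockdown (SE 0.296, adjusted p = 0.000437) and by 1.14 in Smarca4 knockdown (SE 0.296, adjusted p = 0.0375; limma). Over time it fell by 5.96, and in Nons it stood at 27.7, 5.87, 0.636 and 0.266 rpm. Cxadr, the coxsackievirus and adenovirus receptor of tight junctions, changed by -1.07 (adjusted p = 0.000475) and -0.92 (adjusted p = 0.00228), lower than same-day Nons in all 16 knockdown libraries. Crb3, an apical polarity protein (-1.02, adjusted p = 0.00141), and Marveld3, a relative of occludin (-0.89, adjusted p = 0.00156), fell in Smarcc1 knockdown. In Smarca4 knockdown Crb3 (-0.44, adjusted p = 0.149) and Marveld3 (-0.03, adjusted p = 0.94) did not pass. Pard6g, of the Par polarity complex, passed in both (-0.45, adjusted p = 0.0363 and -0.65, adjusted p = 0.00848), and Jam3 fell in Smarca4 knockdown (-0.58, adjusted p = 0.017). Over time Tjp3, the ZO-3 scaffold, rose 15.1-fold, Marveld3 15.1-fold and Crb3 13.5-fold.

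Of 19 other claudins listed, 2 were abundant enough to be tested. Cldn12 rose 3.48-fold and Cldn25 2.10-fold from day 4 to day 7. Neither passed in a knockdown, with changes of -0.38 and -0.42 in Smarcc1 knockdown and -0.11 and -0.45 in Smarca4 knockdown.

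Among 17 tested adherens junction and epithelial genes, 0 rose and 4 fell in Smarcc1 knockdown, and 2 rose and 1 fell in Smarca4 knockdown (medians -0.23 and 0.04, against 0.06 for all genes in both). The shares over all genes were 7.54% higher and 3.08% lower in Smarcc1 knockdown, and 4.75% higher and 1.96% lower in Smarca4 knockdown. The keratin gene Krt19 changed by -1.82 in Smarcc1 knockdown (adjusted p = 0.000187) and by -1.80 in Smarca4 knockdown (adjusted p = 0.000492). Its values on day 7 were 441 rpm in Nons, 92.5 and 77.8 rpm with the Smarcc1 hairpins, and 84.5 and 42.9 rpm with the Smarca4 hairpins. Krt8 (-0.71, adjusted p = 0.0113), Krt18 (-0.77, adjusted p = 0.0122) and Ovol2, an epithelial transcription factor (-0.52, adjusted p = 0.0476), fell in Smarcc1 knockdown. Rab25, an epithelial trafficking GTPase (1.15, adjusted p = 0.000597), and Esrp2, an epithelial splicing factor (0.82, adjusted p = 0.0196), rose in Smarca4 knockdown. Cdh1 (E-cadherin) did not pass in either, with changes of -0.43 and -0.18. Over time Krt8 rose 92.6-fold, Krt18 84.2-fold, Krt19 54.4-fold and Pvrl2 (nectin-2) 3.79-fold.

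**Figure D5:**
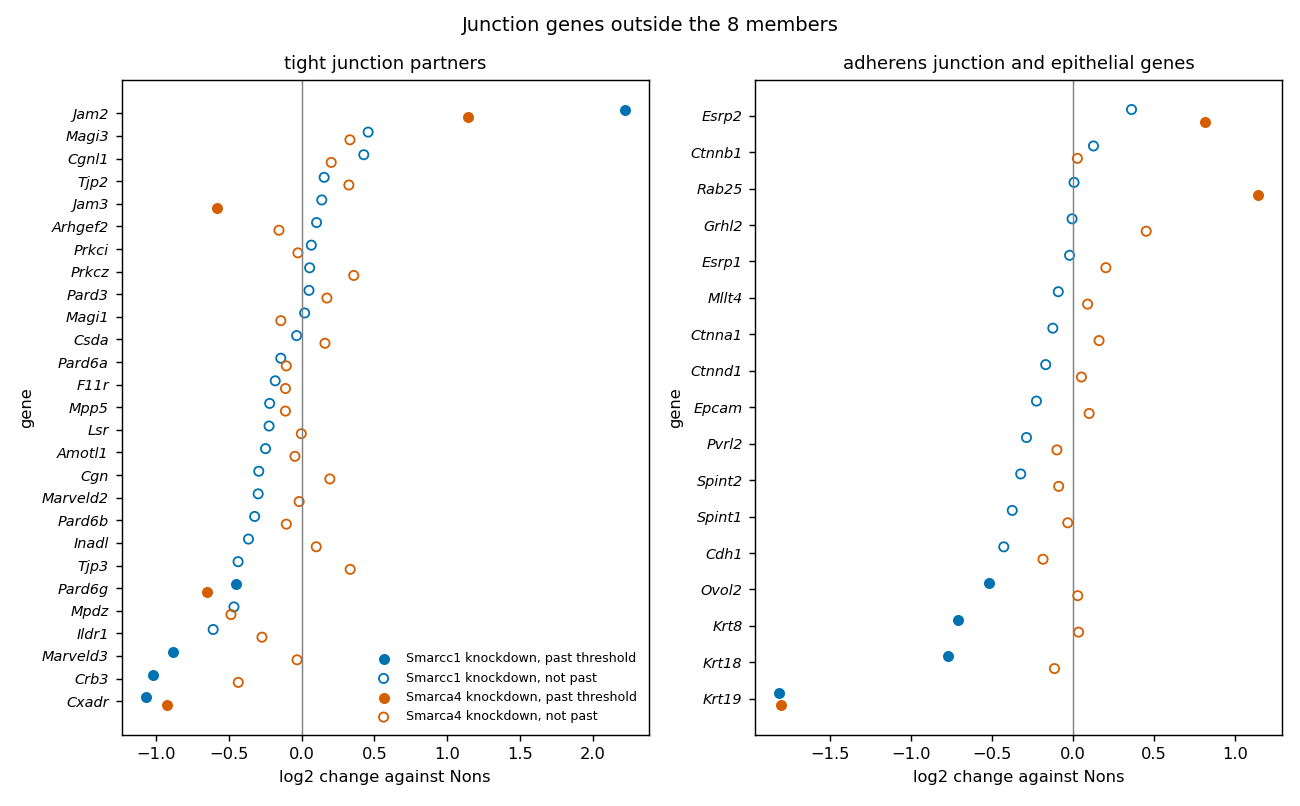
Log2 change against Nons (horizontal axis) of each tested gene (vertical axis) in the lists of tight junction partners (left) and of adherens junction and epithelial genes (right), Smarcc1 knockdown in blue and Smarca4 knockdown in orange. Filled points passed the test: Jam2 stands far to the right in both knockdowns, Cxadr and Krt19 to the left in both, and Rab25 to the right in Smarca4 knockdown.

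Markers of other cell types and of the starting state moved as well, and their part in the results was not tested. Bulk RNA cannot tell fewer cells of a type from less RNA per cell. Of 10 pluripotency genes, 7 rose in Smarcc1 knockdown, where 7.54% of all genes rose, and 4 in Smarca4 knockdown, where 4.75% did. Their summed level ran from 718 to 2867 rpm in Nons, 1180 to 3638 in Smarcc1 knockdown and 1030 to 3212 in Smarca4 knockdown. Beside Cldn5, 5 of 10 endothelial markers were tested, of which 2 rose in Smarcc1 knockdown (Pecam1 by 1.69 on the log2 scale, Esam by 1.31) and 1 in Smarca4 knockdown (Esam by 0.99). Their summed level ran from 47.0 to 109.9 rpm in Nons, 73.1 to 116 in Smarcc1 knockdown and 46.05 to 102 in Smarca4 knockdown. Emcn had 0 reads in all 20 libraries, and Cdh5, the endothelial cadherin, had 0 to 8. Pecam1 is also known to be made by mESCs, and stood at 54.9 rpm in Nons on day 4 and at 3.25 rpm on day 7.

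The counts of the next 3 lists stand beside the shares over all genes given above (for Smarcc1 knockdown 7.54% rose and 3.08% fell, for Smarca4 knockdown 4.75% and 1.96%). Of 11 visceral endoderm markers 5 were tested, of which 3 rose in Smarcc1 knockdown and 1 in Smarca4 knockdown. Of 8 trophoblast markers 5 were tested, of which 1 rose in Smarcc1 knockdown and 2 in Smarca4 knockdown, with a summed level of 23.9 to 40.9 rpm in Nons, 30.5 to 61.0 in Smarcc1 knockdown and 36.3 to 62.1 in Smarca4 knockdown. Of 13 mesenchymal markers 10 were tested, of which 3 rose and 3 fell in Smarcc1 knockdown and 0 rose and 2 fell in Smarca4 knockdown.

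Across the 20 libraries Pearson's r of the log2 values was 0.712 to 0.969 between the 5 other claudins and Ocln, highest for Cldn6 with Cldn7. Tjp1 followed these genes less closely (r from 0.435 with Cldn7 and Cldn9 to 0.667 with Cldn4). Cldn5 ran against each other member (r from -0.836 with Cldn4 to -0.445 with Cldn9). These describe libraries that share days and series. The genes most like each member by the same measure were App (0.988) and Arhgef16 (0.987) for Cldn6, Rdh11 (0.99) and Pdlim3 (0.988) for Cldn7, Fam132a (0.969) for Cldn3, Junb (0.981) for Cldn4, Cryl1 (0.969) for Cldn5, Mxra8 (0.936) for Cldn9, Slc35f5 (0.985) for Ocln and Svil (0.955) for Tjp1.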

How the data were processed

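Per the study's methods and the labels, single-end reads were trimmed (trim_galore), mapped to mm10 (tophat or HISAT2) and counted in SeqMonk by the authors. The deposited values are log2 rpm (reads per 1000000 mapped reads), with 0 reads set at 0.9 of a read, from which whole reads and totals were recovered here (tolerance 0.02 of a read, below 1000 reads). The annotation release and strand setting are not given in the sources used here.

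For testing, limma 3.58.1 (R 4.3.3, trend) was fitted to 12 group and day means over the 13296 genes whose log2 values averaged 0 or more, leaving 8 residual degrees of freedom. Contrasts were adjusted by Benjamini-Hochberg over all genes at 0.05. An exact permutation test planned for members below the filter was not needed. The fit was tested on simulated data for Smarcc1 knockdown against Nons. It called 94.4% of 198 genes simulated with a log2 change of 1, up or down, among 13652 genes tested. It also called 9 unchanged genes. The simulated libraries were drawn independently, without the length differences or the correlations between days of the real libraries, so real error rates may differ.

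Members and gene lists were chosen with earlier results of these data known. All members were named, and from each list of junction or epithelial genes up to 4 called genes per comparison with the largest change and the same direction in every library or series. Jam3, Cdh1, the marker genes, Pard6g and Krt18 in Smarcc1 knockdown, and values in a comparison that did not select the gene were added after values were seen. For each member the 3 genes with the highest Pearson's r were ranked, and 1 or 2 are named. Exonic lengths are from GENCODE M21. Alternatives were other filters, log2(rpm + 1), centring, quantile normalization, limma-voom, a replicate block, a straight line over days and leaving out hairpins. The fits without Smarca4.4 of day 5 or without 4 libraries, the centring on genes of 1 to 2 kb and the Cldn4 to Cldn6 ratio were added after seeing the data.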

Additional observations from a re-analysis of the deposited data

How the results depend on the processing

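Each comparison was repeated under other settings, and counts are of members past the threshold. In Smarcc1 knockdown against Nons (3 members) a straight line over days gave 1. In Smarca4 knockdown against Nons (3 members) the replicate block gave 1, the straight line 1, the fit without the 4 libraries with the largest length differences 5, and leaving out 1 hairpin at a time 1 to 2. For the knockdowns against each other (5 members) a mean of at least 10 rpm gave 3 (Cldn5 and Cldn9 are then not tested), the replicate block 2, the straight line 1 and leaving out 1 hairpin 0 to 3, while Cldn6 and Ocln, not among the 5, passed in 3 and 1 of 15 settings. For the slope of Smarcc1 knockdown (0 members) limma-voom, the replicate block, the fit without 4 libraries and centring on genes of 1 to 2 kb gave 1 each, which is Cldn5. The replicate block changed no other call among the members. The main fit did not model the series and treats libraries of 1 hairpin on different days as independent. Deviations of the hairpins correlated between days by -0.206 to 0.823, and for Smarcc1 by 0.443 to 0.823 among days 5, 6 and 7. Those libraries are therefore not independent, and p-values of the main fit can be too small. The replicate block estimated a correlation of 0.217 within a series. Leaving out 1 hairpin assumes that the lone hairpin varies like the others. The cause of these changes was not tested.

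Values that changed sign belonged to members that had not passed. In Smarcc1 knockdown they were Cldn4 (-0.034, centred on the median gene) and Cldn9 (-0.11, quantile normalization). In Smarca4 knockdown they were Cldn5 (-0.28, quantile normalization) and, without Smarca4.4 of day 5, Cldn7 (0.079) and Tjp1 (-0.0032). Between the knockdowns Tjp1 took 0.084 without that library, 0.021 without 4 libraries and 0.010 centred on genes of 1 to 2 kb. Slopes of Smarcc1 knockdown were -0.017 (Cldn6) and -0.020 (Ocln) centred on the median gene, -0.019 (Ocln) after quantile normalization, and -0.031 (Cldn6) and -0.028 (Tjp1) without 4 libraries. Slopes of Smarca4 knockdown were 0.0062 (Ocln) without Smarca4.4 of day 5, 0.044 (Cldn7) and -0.031 (Tjp1) without 4 libraries, and 0.027 (Cldn5), 0.037 (Cldn7) and 0.026 (Ocln) centred on genes of 1 to 2 kb. Leaving out 1 hairpin at a time, Smarcc1 knockdown ranged from -0.035 to 0.083 for Cldn4, -0.045 to 0.30 for Cldn9, -0.21 to 0.064 for Ocln and -0.24 to 0.40 for Tjp1. Smarca4 knockdown ranged from -0.23 to 0.18 for Cldn7 and -0.25 to 0.50 for Tjp1, and the knockdowns against each other from -0.42 to 0.33 for Tjp1. Slopes of Smarcc1 knockdown ranged from -0.023 to 0.096 (Cldn6) and -0.14 to 0.025 (Cldn7), and those of Smarca4 knockdown from -0.32 to 0.012 (Cldn3), -0.23 to 0.19 (Cldn5), -0.18 to 0.074 (Cldn6), -0.12 to 0.10 (Cldn7) and -0.048 to 0.0098 (Ocln).

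Over all genes, 1412 passed in Smarcc1 knockdown, 892 in Smarca4 knockdown and 544 between them. These counts were 579, 324 and 241 at a mean of at least 10 rpm, 605, 258 and 105 with the replicate block, 660, 307 and 169 with the straight line and 5340, 4253 and 2606 without 4 libraries, and leaving out 1 hairpin gave 843 to 1288, 277 to 656 and 49 to 263. Of the calls, 71% were higher in Smarcc1 knockdown and 70.7% in Smarca4 knockdown, against 53.7% and 52.9% after quantile normalization. Depth (6829596 reads in Smarca4.4 of day 5) limits Cldn5 and Cldn9, which had 34 and 23 reads there.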
